A study of Mus musculus with 4 samples.

Results

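The 10 genes described here are R-spondin and Wnt signalling genes, chosen by name among the 50766 genes of the deposited matrices. They comprise the secreted amplifier Rspo3, the ligands Wnt4, Wnt5a, Wnt7a and Wnt7b, the R-spondin receptors Lgr4 and Lgr5, the ubiquitin ligases Znrf3 and Rnf43, and the scaffold gene Axin2. All 10 had at least 1 unique molecular identifier (UMI, 1 counted RNA molecule) in each of the 4 libraries.

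Wnt ligands bind Frizzled receptors and, in the canonical branch, stabilise beta-catenin, which works with TCF/LEF factors to switch on target genes. ZNRF3 and RNF43 remove Frizzled receptors from the cell surface, and an R-spondin bound to LGR4 or LGR5 removes those ligases in turn, so that a cell responds more strongly to Wnt. In the liver this loop is best known for setting the metabolic zones of hepatocytes around the central vein, with Rspo3 made by central vein endothelium and stellate cells.

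The study took liver cells of Sox9EGFP mice, in which a fluorescent protein reports Sox9, a transcription factor gene of bile duct cells, and profiled them by single-cell RNA sequencing. Of the 4 libraries, 2 were taken at 7 days from sham-operated mice and 2, at the same time, from mice whose common bile duct had been tied off (bile duct ligation, BDL), which blocks bile flow. All 4 libraries are labelled as biliary epithelial cells of the same genotype, and strain, age and any cell sort were not given in the sources used here. After filtering, 12181 of 12211 cells remained, with 9998533 to 33714611 UMIs a library and a median of 2612.5 to 7794.5 UMIs a cell, the 2 BDL libraries being the deeper, and no barcode was shared between libraries. Biliary epithelial (BEC)-like cells, named from Krt19, Krt7, Epcam, Sox9 and further markers, made up 81.4% to 94.3% of each library. Mesenchymal-like cells numbered 188 (sham replicate 1), 419 (sham replicate 2), 71 (BDL replicate 1) and 132 (BDL replicate 2), and endothelial-like cells 40, 122, 19 and 34 in that order. The libraries also held 87 macrophage-like cells, in which 3 B cell markers were also enriched, 75 hepatocyte-like cells and 29 cells of 1 unnamed cluster led by St18, Rgs13 and Trpm5. The macrophage-like cluster was led by Igha and Ptprc. With the clustering resolution at 0.5 or 2 in place of 1, no cluster was named macrophage-like.

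The group name inside the deposited cell tables contradicts the sample label for sham replicate 2, which the table calls BDL, and for BDL replicate 2, which it calls sham. Groups here follow the sample labels. The BEC-like cells formed 4 clusters held mostly by libraries labelled sham and 7 held mostly by libraries labelled BDL, and sham replicate 2 had 99.2% of its BEC-like cells in the former, against 98.3% in sham replicate 1, 2.24% in BDL replicate 1 and 0.421% in BDL replicate 2. Results are also given for sham replicate 1 against BDL replicate 1 alone, the libraries whose label and table match. The main BEC-like clusters of the 2 groups are therefore different ones. The sham clusters were led by Kcnip4 and Kcnma1, by Sorbs2 and Shank2, by Krt78 and Tll2, or by Mboat1, Sema3e and Tspan8. The BDL clusters were led by Cxcl5 and Ccl20, by Plet1 and Sema3e, by Ankrd1, by Epb41l4a and Pak3, by Asz1, by Gm34790, or by Mki67, a gene of dividing cells. The 10 genes took no part in the clustering.

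A level below is the number of UMIs of a gene per 1000000 UMIs of all genes in that cell class and library. Over all cells and libraries, Rspo3 had 1145 UMIs, of which 92.5% lay in mesenchymal-like cells, 4.72% in endothelial-like cells and 2.79% in BEC-like cells. The ligands Wnt7a and Wnt7b had 98.9% and 98.8% of their UMIs in BEC-like cells. The receptor Lgr4 had 97.3% there, Rnf43 95.4%, Znrf3 94.5%, Lgr5 94.2% and Wnt4 90.1%. Wnt5a and Axin2 were the more divided, with 77.0% and 57.8% of UMIs in BEC-like cells and 22.3% and 37.8% in mesenchymal-like cells. These shares depend on how many cells each class held and on their depth as well as on the level, and the levels per class gave another order for some of the genes. Rspo3 was higher in mesenchymal-like cells (281 ± 171, SD over the 4 libraries) and endothelial-like cells (144 ± 48.2) than in BEC-like cells (0.736 ± 0.801), and the first pair of ranges overlapped. Wnt5a was higher in mesenchymal-like cells (50.9 ± 20.1) than in BEC-like cells (9.80 ± 1.69), with no overlap. Axin2 was likewise higher in mesenchymal-like cells (30.1 ± 6.66) than in BEC-like cells (2.75 ± 0.897), with no overlap. Lgr4 averaged 158 ± 38.8 in BEC-like and 41.2 ± 8.03 in mesenchymal-like cells, again with no library in common. Znrf3 levels overlapped between BEC-like cells (130 ± 31.1) and mesenchymal-like cells (90.7 ± 16.7), as did those of Wnt4 (37.6 ± 19.2 and 44.2 ± 45.7) and Lgr5 (2.19 to 3.80 and 1.81 to 2.77). Levels in macrophage-like and hepatocyte-like cells rested on 50 UMIs or fewer a gene over all libraries, and that of Axin2 in endothelial-like cells on 1, 2, 2 and 4 UMIs, and no order is read from them. These comparisons of classes are descriptions and were not tested.

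Rspo3 encodes R-spondin 3, the secreted protein that binds LGR receptors. In mesenchymal-like cells its level was 389 and 452 in sham and 201 and 80.4 in BDL. Both sham libraries lay above both BDL libraries. The log2 fold change was -1.66 (SE 0.39, edgeR quasi-likelihood adjusted p = 0.0401, n = 2 libraries a group), the sole one of the 6 genes tested in this class that passed, where 6.16% of the 8750 genes tested passed. Median log2 fold changes were 0.09 for these 6 genes and 0.00093 for all genes tested. Rnf43, Lgr5, Wnt7a and Wnt7b had too few counts there to be tested. Each cell was then thinned to 1000 UMIs, and cells with fewer were left out. The share of mesenchymal-like cells with an Rspo3 UMI was 28.6% and 34.2% in sham and 19.7% and 9.85% in BDL. Without thinning, over all cells of the class, it was 50.5%, 52.0%, 43.7% and 22.7%.

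The mesenchymal-like class held 3 clusters, and Rspo3 followed them closely. A cluster with the stellate cell markers Lrat and Reln, led by Ntm and Colec10, had Rspo3 levels of 751 and 657 in sham (108 and 320 cells) and 568 and 418 in BDL (29 and 22 cells). A cluster led by the fibrillar collagen genes Col1a1 and Col1a2, with the matrix genes Lox and Tnc, had levels of 65.0 and 61.7 in sham (18 and 15 cells) and 23.2 and 30.6 in BDL (41 and 107 cells). The third cluster, led by C7, Igfbp3 and Dpt, had 38.5 and 14.4 in sham and only 1 and 3 cells in BDL. In both of the first clusters each sham library lay above each BDL library, while most sham cells of the class lay in the Lrat and Reln cluster and most cells of each BDL library in the collagen cluster. The Lrat and Reln cluster held 263 of 281 and 573 of 586 Rspo3 UMIs of the class in sham. In BDL it held 95 of 103 and 60 of 89. The levels in the collagen and C7 clusters therefore rest on few UMIs, and their order between libraries is uncertain. Tested within 1 cluster, a choice made after seeing these data, the Rspo3 log2 fold change was -0.57 in the Lrat and Reln cluster (edgeR adjusted p = 0.366) and -1.35 in the collagen cluster (adjusted p = 0.125). The part of the cluster mix in the class-wide fall was not tested further. The class-wide call was also lost without BDL replicate 2 (log2 fold change -1.06, edgeR adjusted p = 0.248), without sham replicate 1 (-1.79, adjusted p = 0.0740), without TMM scaling (-1.63, adjusted p = 0.0570) and with a stricter cell filter (-1.64, adjusted p = 0.0523). From the 2 libraries whose label and table match, the log2 ratio of TMM-scaled levels was -0.91, with no test.

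**Figure D1:**
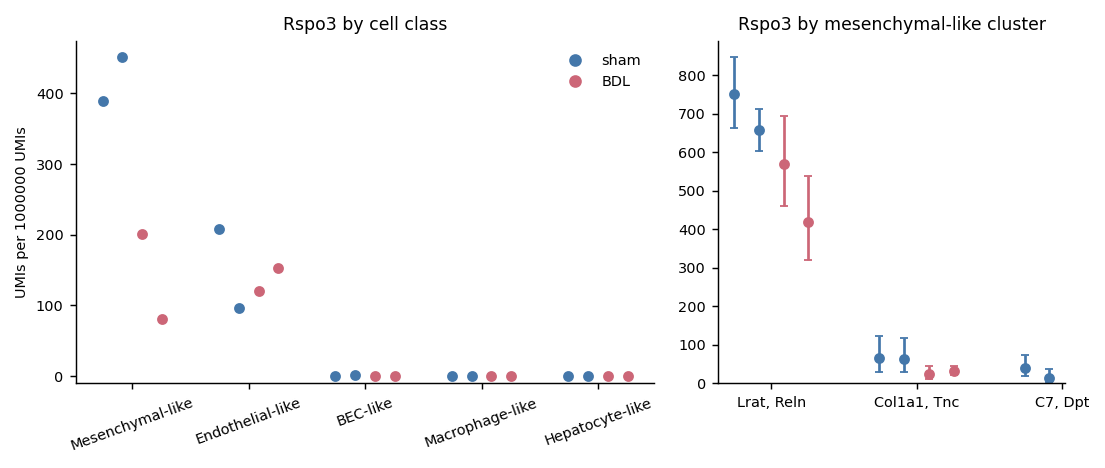
Rspo3 levels (UMIs per 1000000 UMIs of the class or cluster, linear axis) in each library by cell class (left) and by mesenchymal-like cluster, named by leading genes (right, libraries with 10 or more cells). Points are libraries, blue for sham and red for BDL, in the order replicate 1 and 2, and the bars on the right are 95% Poisson intervals. The Lrat and Reln cluster sits between 418 and 751 and the collagen cluster between 23.2 and 65.0.

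In endothelial-like cells Rspo3 was at 208 and 96.4 in sham and 121 and 153 in BDL. The groups overlapped, and the log2 fold change was -0.19 (SE 0.48, edgeR adjusted p = 0.891), in a class where 1.52% of the 2037 genes tested passed. Only 3, 5, 2 and 2 cells of the 4 libraries held the 13, 14, 7 and 20 UMIs behind these values. In BEC-like cells Rspo3 had 6 and 16 UMIs in sham and 3 and 7 in BDL, levels of 0.616, 1.90, 0.205 and 0.220, and did not pass the filter on low counts. These levels were 0.158%, 0.421%, 0.102% and 0.273% of those in mesenchymal-like cells of the same library. The sum of all 11 mesenchymal markers in the same BEC-like cells stood at 1.62%, 1.48%, 5.25% and 5.42% of its mesenchymal-like level. Rgs5 was set apart after its values were seen, and the sum of the other 10 stood at 0.507%, 0.662%, 0.0744% and 0.115%. Most of the sham sum was Reln, and the sum of the 9 markers without it stood at 0.121%, 0.217%, 0.0521% and 0.0847%. Macrophage-like and hepatocyte-like cells had 0 Rspo3 UMIs in every library, which allows a level of up to 10.4 in the deepest macrophage-like sum (3 counts). The other R-spondin genes were rare: in mesenchymal-like cells Rspo1 had 1, 6, 0 and 1 UMIs, Rspo2 0, 2, 0 and 1, and Rspo4 0 throughout.

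In BEC-like cells 9 of the 10 genes could be tested. Wnt7a and Wnt7b rose and Wnt4, Rnf43 and Znrf3 fell after BDL, which is 2 genes higher and 3 lower, where 14.2% of the 15968 genes tested were higher and 12.9% lower (27.0% in all). The median log2 fold change was -0.45 for the 9 genes and -0.03 for all genes tested. The number of genes called in this class dropped from 4317 to 1310 without sham replicate 1 and to 1698 without sham replicate 2, and of the 5 genes Wnt4 and Wnt7a alone passed without sham replicate 1. The labels do not say more of the replicates than their group. With 2 libraries a group, each p-value weighs the group difference against a spread between libraries. For each gene edgeR estimates that spread partly from all genes tested.

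Wnt7a and Wnt7b encode closely related ligands that, in brain endothelium, signal through the RECK and ADGRA2 receptor complex. Wnt7b was at 20.4 and 26.5 in sham and 66.8 and 115 in BDL. The lower BDL library exceeded the higher sham library, with a log2 fold change of 1.97 (SE 0.29, edgeR adjusted p = 0.00484). Wnt7a was at 2.98 and 5.35 in sham and 15.3 and 21.3 in BDL, and the groups again stood apart (log2 fold change 2.17, SE 0.33, edgeR adjusted p = 0.00544). BDL replicate 2 was the higher BDL library for both genes and sham replicate 2 the higher sham library. Without sham replicate 1 the call on Wnt7b was lost (log2 fold change 1.73, edgeR adjusted p = 0.0553) and that on Wnt7a was kept. Between the 2 libraries whose label and table match, the log2 ratios were 1.80 for Wnt7b and 2.46 for Wnt7a. Thinning each cell to 1000 UMIs left out 77 and 105 shallower BEC-like cells in sham and 0 and 0 in BDL. Of the rest, 1.85% and 2.37% had a Wnt7b UMI in sham and 6.16% and 10.3% in BDL (two-sided exact permutation p = 0.33, the smallest that 2 against 2 libraries can give). Unthinned, these shares were 5.93%, 6.64%, 30.6% and 45.7%, which carry the greater depth of the BDL libraries. In mesenchymal-like cells Wnt7b had 20 UMIs over the 4 libraries and Wnt7a 3, so that a change there was not detectable at this depth.

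Both genes varied several fold among BEC-like clusters of the same library. In sham, Wnt7b was at 60.9 and 62.3 in the cluster led by Mboat1, Sema3e and Tspan8 and between 5.51 and 12.4 in the other 3 clusters. Wnt7a was at 9.46 and 12.5 in that cluster and at 4.23 or less elsewhere. In BDL, Wnt7b was highest in the Plet1, Sema3e and Vtcn1 cluster (115 and 177) and lowest in the Gm34790 cluster (30.7 and 54.7), and the former cluster was also the highest for Wnt7a in BDL replicate 1 (37.1) though not in BDL replicate 2, where it stood at 31.6 beside 33.9 in the Asz1 cluster. Sema3e is among the leading genes of the cluster with the highest Wnt7b in each group. Wnt7b in the lowest BDL cluster was above the 3 low sham clusters but below the sham Sema3e cluster, so the 2 groups overlapped once clusters were set side by side.

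**Figure D2:**
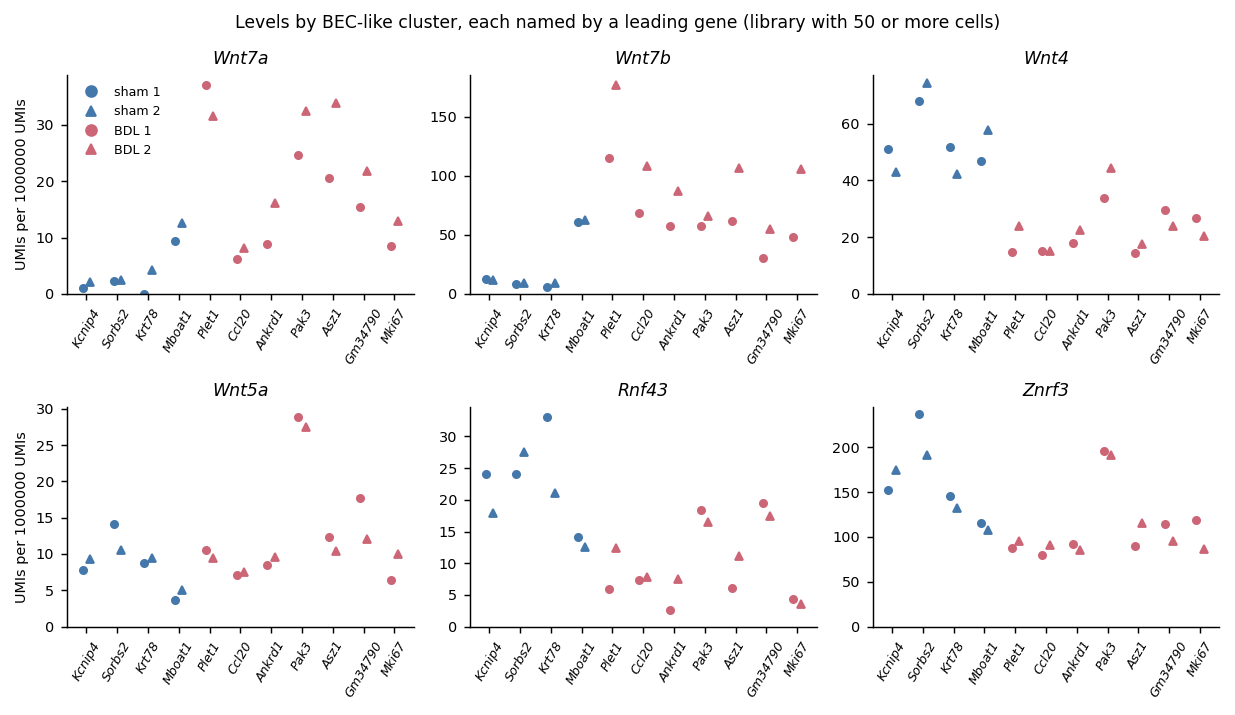
Levels of 6 genes (UMIs per 1000000 UMIs of the cluster, linear axes from 0) by BEC-like cluster, each cluster named by 1 of its leading genes, for libraries with 50 or more cells in it. Blue marks sham and red BDL, circles replicate 1 and triangles replicate 2. Wnt7b stands at 60.9 and 62.3 in the sham cluster named Mboat1 and reaches 177 in the BDL cluster named Plet1, whereas Wnt5a, Wnt4 and Znrf3 are highest in BDL in the cluster named Pak3.

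Wnt4, a ligand known from kidney tubule formation, moved the other way. Its level was 53.2 and 55.1 in sham and 20.1 and 21.9 in BDL. The libraries of a group lay close together and the groups far apart, with a log2 fold change of -1.35 (SE 0.14, edgeR adjusted p = 0.00124). The call held with each library left out in turn (log2 fold changes from -1.44 to -1.22), and the 2 libraries whose label and table match gave -1.31. In the thinned cells 6.00% and 5.07% had a Wnt4 UMI in sham and 2.29% and 2.29% in BDL. All 4 sham clusters exceeded 42, led by the Sorbs2 and Shank2 cluster at 68.0 and 74.3. In BDL the Epb41l4a and Pak3 cluster was highest at 33.9 and 44.3, and the Ccl20 cluster was at 15.3 and 15.1. In mesenchymal-like cells Wnt4 was at 26.3 and 111 in sham and 7.79 and 31.6 in BDL, with overlapping groups (log2 fold change -1.75, SE 0.68, edgeR adjusted p = 0.166). The summed level of the 11 BEC markers in those mesenchymal-like cells was 443 and 1273 in sham and 432 and 1030 in BDL, so it was highest in the libraries where Wnt4 was higher within each group, and its part in the Wnt4 level was not tested. It passed there under 2 of 13 alternatives, without sham replicate 1 (-2.40, edgeR adjusted p = 0.0371) and without a filter on low counts (-1.68, adjusted p = 0.00040), and with a library left out it ran from -3.19 (without BDL replicate 2) to -0.25 (without sham replicate 2, adjusted p = 0.896).

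Wnt5a encodes the main ligand of the branch of the pathway that works without beta-catenin, through ROR receptors. In BEC-like cells it was at 8.22 and 8.56 in sham and 11.7 and 10.7 in BDL. The groups did not overlap, but the log2 fold change of 0.43 (SE 0.19, edgeR adjusted p = 0.132) did not pass. Among BDL clusters the Epb41l4a and Pak3 cluster, led also by Krt7, stood apart at 28.9 and 27.4, against 17.7 or less in the others. In mesenchymal-like cells Wnt5a was at 29.1 and 46.3 in sham and 50.6 and 77.7 in BDL (log2 fold change 0.71, SE 0.35, edgeR adjusted p = 0.267), and in the collagen cluster at 50.5 and 48.0 in sham (7 UMIs each) and 69.5 and 82.2 in BDL. In the cluster led by C7 it was at 21.4 and 71.9 in sham.

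The promoter windows of the ligands that moved in opposite directions, Wnt7a and Wnt4, are printed for comparison. They are the 250 bases before the annotated start, from RefSeq on build GRCm38.p6, which is not the build the submitters counted on. The Wnt7a window is chr6:91411354-91411603 on the minus strand and the Wnt4 window chr4:137277385-137277634 on the plus strand, both 5′ to 3′.
Wnt7a: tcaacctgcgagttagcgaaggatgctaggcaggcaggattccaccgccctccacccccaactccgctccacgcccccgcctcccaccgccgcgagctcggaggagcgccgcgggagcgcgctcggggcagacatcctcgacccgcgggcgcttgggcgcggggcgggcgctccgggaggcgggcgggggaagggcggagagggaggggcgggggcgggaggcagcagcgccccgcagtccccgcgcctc
Wnt4: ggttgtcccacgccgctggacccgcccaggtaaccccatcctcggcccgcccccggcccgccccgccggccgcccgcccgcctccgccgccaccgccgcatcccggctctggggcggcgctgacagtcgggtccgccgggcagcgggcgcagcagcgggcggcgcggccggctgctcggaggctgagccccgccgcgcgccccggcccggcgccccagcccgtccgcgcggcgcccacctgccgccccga
Both windows were rich in G and C, with 77.6% in Wnt7a and 85.2% in Wnt4 beside a median of 52.4% over 32841 promoter windows, and they held 34 and 44 CpG dinucleotides. The TCF/LEF motif was searched on both strands as CTTTG followed by any pair drawn from A and T. The AP-1 motif was searched as TGANTCA, and the TEAD motif as GGAATG, both on both strands. None of these was in either window, and they were in 14.8%, 6.75% and 12.6% of all windows in that order. RefSeq windows were found for 5 of the 10 genes (Lgr4, Wnt4, Wnt7a, Rnf43 with 2 starts, and Axin2) and not for Rspo3, Lgr5, Znrf3, Wnt5a and Wnt7b.

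Lgr4 and Lgr5 encode the receptors that R-spondins bind, Lgr5 being a marker of intestinal stem cells. Lgr4 in BEC-like cells was at 214 and 155 in sham and 139 and 125 in BDL. Both sham libraries were higher, but they were further from each other than sham replicate 2 was from BDL, and the log2 fold change of -0.45 (SE 0.14, edgeR adjusted p = 0.0511) missed the threshold. It passed with DESeq2 (-0.44, adjusted p = 0.0362), with 5 of the other alternatives and not with the remaining 7, so that the call depends on the setting. In the thinned cells the shares with a UMI were 17.8%, 12.8%, 12.8% and 11.1% (two-sided exact permutation p = 0.67), while the unthinned shares ran the other way at 42.0%, 30.7%, 53.0% and 50.9%. Lgr5 was at 3.80, 2.85, 2.19 and 3.17, with overlapping groups (log2 fold change -0.27, SE 0.33, edgeR adjusted p = 0.581). Lgr6, the third receptor of the family, had 3, 4, 3 and 12 UMIs in BEC-like cells and was not tested. Among the sham clusters Lgr4 was highest in that led by Kcnip4 and Kcnma1 (261 and 208), and the BDL clusters differed little, from 104 to 164. In mesenchymal-like cells Lgr4 was at 33.2 and 51.7 in sham and 42.8 and 37.1 in BDL (log2 fold change -0.18, SE 0.35, edgeR adjusted p = 0.815). The 11 BEC markers summed there to 4.82% and 14.4% of their BEC-like level in sham and 4.66% and 10.1% in BDL. Their part in the mesenchymal-like level of Lgr4, or of any other of the 10 genes, was not tested. Of the 6 promoter windows searched, that of Lgr4 alone held a match, with 2 copies of the TEAD motif (capitals, on the opposite strand) beginning 178 and 158 bases before the start, at chr2:109917397-109917646 on the plus strand of GRCm38.p6.
Lgr4: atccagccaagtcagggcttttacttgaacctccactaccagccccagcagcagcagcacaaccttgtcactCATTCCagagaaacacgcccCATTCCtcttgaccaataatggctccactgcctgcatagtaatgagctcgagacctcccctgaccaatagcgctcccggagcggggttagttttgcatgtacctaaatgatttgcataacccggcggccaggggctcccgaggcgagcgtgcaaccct

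Znrf3 and Rnf43 encode the ligases that the R-spondins counteract, and both genes are themselves induced by beta-catenin in many tissues. Znrf3 in BEC-like cells was at 159 and 155 in sham and 103 and 103 in BDL. The groups did not overlap, and the log2 fold change was -0.59 (SE 0.11, edgeR adjusted p = 0.010). Rnf43 was at 23.4 and 19.3 in sham and 8.49 and 10.1 in BDL, a log2 fold change of -1.17 (SE 0.17, edgeR adjusted p = 0.00468), with the groups again apart. Without sham replicate 1 neither passed (adjusted p = 0.0589 for Znrf3 and 0.0521 for Rnf43 in edgeR), and without sham replicate 2 Znrf3 did not pass (adjusted p = 0.0941), at fold changes within 0.1 of the full ones. Between the 2 libraries whose label and table match, the log2 ratios were -0.53 and -1.37. The thinned shares of cells with a UMI were 13.5% and 13.0% in sham and 10.6% and 9.58% in BDL for Znrf3, and 2.25%, 1.97%, 0.764% and 0.974% for Rnf43. Without thinning, the Znrf3 share was higher in BDL (34.3%, 30.7%, 42.5% and 46.2%).

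The fall of Znrf3 was not even among clusters. The sham clusters ran from 108 to 237, the highest being the Sorbs2 and Shank2 cluster at 237 and 191. In BDL the Epb41l4a and Pak3 cluster, which was also highest for Wnt4 and Wnt5a, had 195 and 191, and every other BDL cluster lay at 119 or less. Rnf43 was highest in BDL in that cluster (18.3 and 16.5) and in the Gm34790 cluster (19.5 and 17.5), above the sham Mboat1 cluster (14.2 and 12.5). In mesenchymal-like cells Znrf3 was at 72.0 and 84.1 in sham and 95.4 and 111 in BDL (log2 fold change 0.36, SE 0.25, edgeR adjusted p = 0.455). The difference between its change in BEC-like and in mesenchymal-like cells was -0.96 (SE 0.28, edgeR interaction adjusted p = 0.0569), just short of the threshold. None of the 10 genes passed that interaction test, which 5.12% of 15320 genes passed. Under the 13 alternatives Znrf3 passed it in 5 (lowest edgeR adjusted p = 0.00383, without the top doublet scores) and did not pass it with any 1 library left out. Wnt7b, whose difference was 2.48 (adjusted p = 0.134) on 20 mesenchymal-like UMIs, passed it in 4 (lowest adjusted p = 0.00116, without sham replicate 2) and stood at 0.83 without sham replicate 1 (adjusted p = 0.844).

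The 10 hepatocyte markers summed to 1346 and 1367 in the BEC-like cells of the sham libraries and to 239 and 187 in those of the BDL libraries, 7.33%, 7.97%, 2.29% and 1.86% of their level in hepatocyte-like cells. This moved with the fall of Rnf43, Znrf3 and Wnt4, and its part in them was not tested. Over all libraries the hepatocyte-like cells held 13 UMIs of Rnf43, 41 of Znrf3 and 7 of Wnt4. Of the 11 mesenchymal markers in the same BEC-like cells, Rgs5 was at 247 and 144 in sham and 1207 and 1464 in BDL, and Reln at 83.3 and 76.1 in sham and 5.62 and 8.75 in BDL. The other 9 summed to 22.3 and 27.6 in sham and 11.4 and 22.5 in BDL, with overlapping groups, and Col1a1, at 3.18, 3.33, 2.53 and 5.43, was highest in BDL replicate 2. Rgs5 and Reln were set apart after their values were seen.

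**Figure D3:**
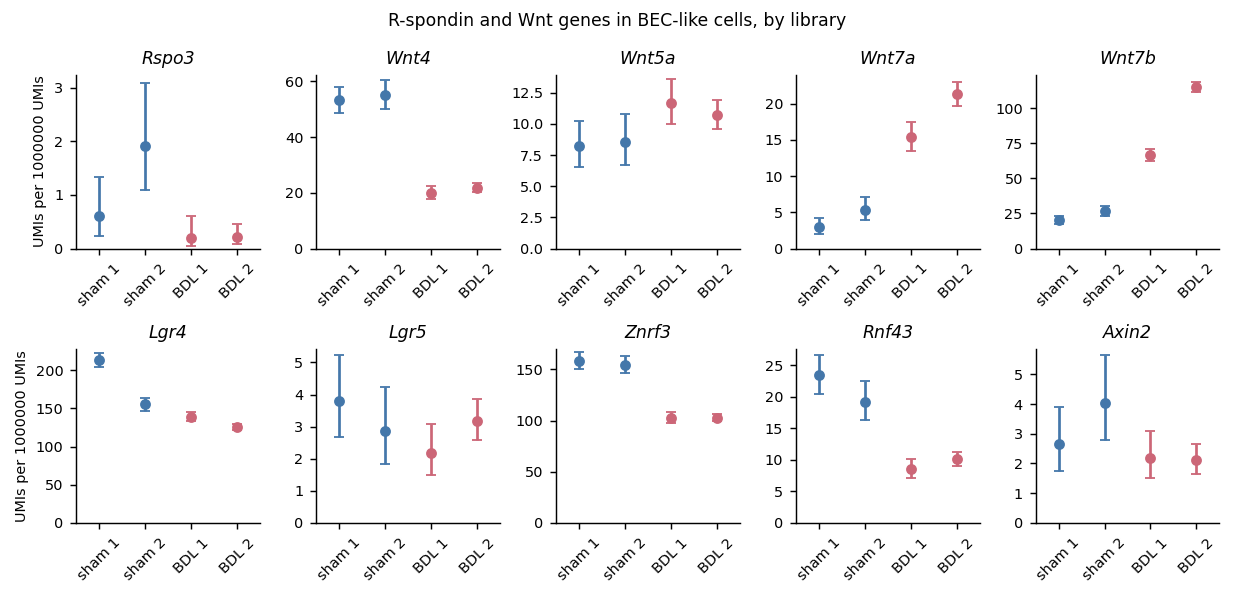
Levels of the 10 genes in BEC-like cells (UMIs per 1000000 UMIs of the class, linear axes from 0) in each library. Bars are 95% Poisson intervals, which cover counting error only. The sham and BDL libraries do not overlap for Wnt7a and Wnt7b (higher in BDL) or for Wnt4, Rnf43 and Znrf3 (lower in BDL). They also do not overlap for Wnt5a (higher in BDL) or for Lgr4 and Axin2 (lower in BDL), which did not pass. The same holds for Rspo3 (lower in BDL), which was not tested, and the libraries overlap for Lgr5.

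Axin2 encodes a scaffold of the beta-catenin destruction complex and is itself a widely used readout of beta-catenin activity. In BEC-like cells its level was 2.67 and 4.04 in sham and 2.19 and 2.10 in BDL, on 26, 34, 32 and 67 UMIs. The BDL libraries were lower, but the log2 fold change of -0.63 (SE 0.37, edgeR adjusted p = 0.243) did not pass. In mesenchymal-like cells Axin2 was at 27.7 and 23.1 in sham and 38.9 and 30.7 in BDL, with the opposite sign (log2 fold change 0.40, SE 0.36, edgeR adjusted p = 0.569). The interaction between both changes was -1.03 (SE 0.56, edgeR adjusted p = 0.376). In the collagen cluster Axin2 had 1 and 0 UMIs in sham and 18 and 29 in BDL, from 18, 15, 41 and 107 cells. These counts are not scaled to depth, and mesenchymal-like cells had medians of 3243 and 2306 UMIs in sham and 6294 and 7324.5 in BDL. The whole class held 20 and 30 Axin2 UMIs in sham, so nearly all of the sham ones lay in its other clusters, and 20 and 34 in BDL.

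**Figure D4:**
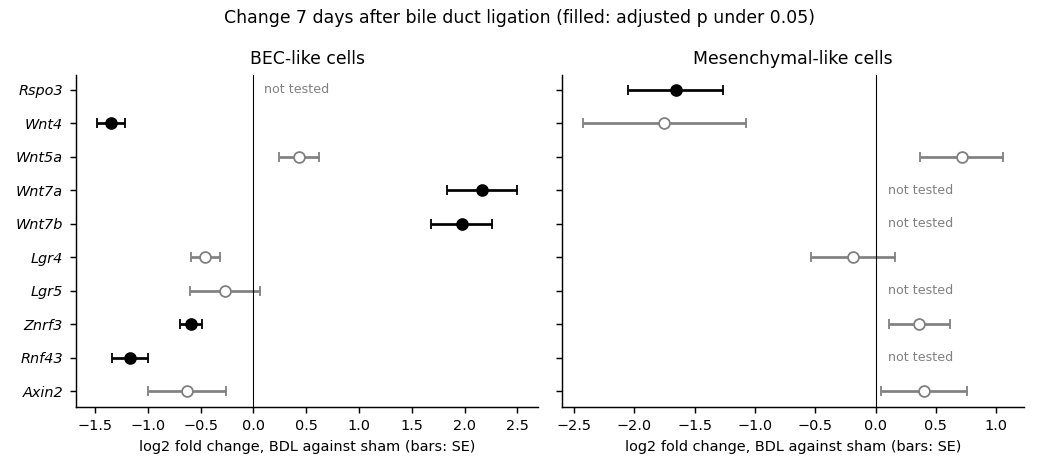
Log2 fold changes (BDL against sham, edgeR) with their SE for the 10 genes in BEC-like cells (left) and mesenchymal-like cells (right). Filled points passed an adjusted p of 0.05, and genes with too few counts are marked as not tested. Wnt7a and Wnt7b lie near 2 on the left and Wnt4 at -1.35, and Rspo3 at -1.66 is the single filled point on the right.

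The other genes of the pathway were read from 9 lists with 101 genes in all, of which 69 were tested in BEC-like cells, 8 were higher and 13 lower after BDL, at a median log2 fold change of 0.0017. That is 30.4% of the genes tested, near the 27.0% of all genes called in this class, and the counts of each list stand beside that same background of 14.2% higher and 12.9% lower. Of the other Wnt ligands 7 of 15 were tested and 3 rose. Wnt5b, a relative of Wnt5a, was at 22.4, 22.6, 49.8 and 45.8 in the order sham 1, sham 2, BDL 1 and BDL 2 (log2 fold change 1.10). Wnt10a was at 2.36, 2.38, 4.45 and 7.31 (1.35) and Wnt2 at 2.05, 0.833, 11.9 and 4.64 (2.49), the groups not overlapping for any of the 3. The list's median was 0.72. Neither of the secretion genes, Porcn and Wls, passed. Of 16 receptors and co-receptors tested, 1 rose and 3 fell, with a median of -0.10. Ptk7, a co-receptor of the planar polarity branch, rose (24.1, 25.6, 43.8 and 65.2). Ror1, the receptor kinase that binds Wnt5a, fell from 524 and 411 to 214 and 206 (log2 fold change -1.13, SE 0.12, edgeR adjusted p = 0.0015), and the Frizzled genes Fzd7 (-1.07) and Fzd9 (-1.90) fell too.

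Of 6 secreted and membrane inhibitors tested, 1 rose and 2 fell. Dkk2, whose product blocks the LRP co-receptors, had 6 and 1 UMIs in sham and 92 and 230 in BDL, levels of 0.616, 0.119, 6.30 and 7.21 (log2 fold change 4.15, SE 0.48, edgeR adjusted p = 0.0021). Sfrp5, a secreted Wnt-binding protein, had 64 and 31 UMIs in sham and 0 and 2 in BDL, and fell (edgeR adjusted p = 0.00135), as did Apcdd1 (log2 fold change -1.36). The signal relay, with all 14 genes tested, moved little: Tnks2, a tankyrase that marks Axin for removal, rose by 0.56 and the kinase Gsk3a fell by 0.61, at a median of 0.13. Of 7 TCF/LEF factors and co-activators 2 fell, Tcf7l1 (log2 fold change -0.67) and Pygo1 (-0.95).

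Of 8 genes listed as beta-catenin targets that were tested, 1 rose and 4 fell, with a median of -0.54. Cd44, a hyaluronan receptor with many other inducers, rose from 312 and 327 to 1776 and 2135 (log2 fold change 2.63, SE 0.16, edgeR adjusted p = 0.00036). Tnfrsf19 fell from 35.5 and 30.5 to 12.3 and 8.09 (-1.70), and Prox1 (-0.54), Glul (-0.54) and Oat (-0.55) fell by less. Glul, which encodes glutamine synthetase, and Oat are genes of hepatocytes around the central vein, and the hepatocyte markers in BEC-like cells fell along with them, as given above. Of 9 planar polarity components Vangl1 rose (15.7, 14.5, 30.3 and 33.7, log2 fold change 1.10) and Prickle1 fell (18.9, 15.1, 8.15 and 4.99, log2 fold change -1.38). Of the 21 list genes named for BEC-like cells, 7 passed without sham replicate 1 (Wnt5b, Ror1, Sfrp5, Dkk2, Cd44, Tnfrsf19 and Vangl1) and 10 without sham replicate 2, and Fzd9, Apcdd1 and Oat did not pass with DESeq2.

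**Figure D5:**
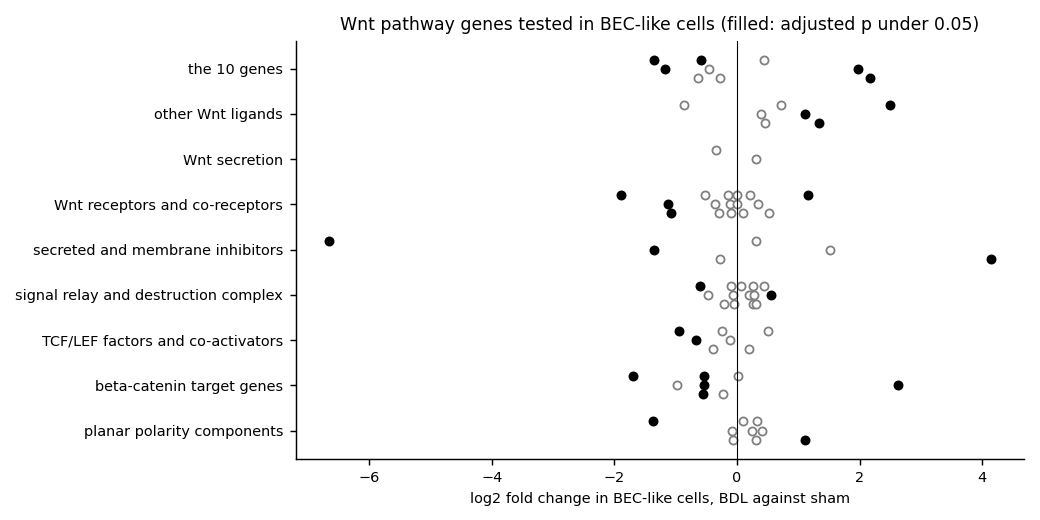
Log2 fold changes in BEC-like cells (BDL against sham, edgeR) of the 10 genes and of the tested genes of each pathway list, 1 point a gene, filled where the adjusted p was under 0.05. The height within a row only separates points. The filled points lie on both sides of 0 in most rows, with Sfrp5 at -6.66 (a fit against a group with 0 and 2 UMIs) and Dkk2 at 4.15 as the extremes.

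In mesenchymal-like cells 59 of the 101 list genes were tested, and 7 rose and none fell (Nkd2, Fzd1, Ror1, Ror2, Dkk3, Frzb and Cd44), where 2.45% of all genes tested were higher and 3.71% lower. Nkd2, an inhibitor that binds Dishevelled, was at 4.15, 5.40, 95.4 and 89.5 (log2 fold change 4.14, SE 0.38, edgeR adjusted p = 0.00178). The Frizzled gene Fzd1 went from 33.2 and 22.4 to 136 and 149 (log2 fold change 2.36). The Wnt5a receptor genes Ror1 (143, 167, 487 and 541, log2 fold change 1.68) and Ror2 (37.4, 20.8, 117 and 104, log2 fold change 1.93) rose as well. Without BDL replicate 2 none of these 4 passed, nor did any gene of the class in edgeR, where 1161 genes had an unadjusted p under 0.05. Within the collagen cluster alone Nkd2 and Ror1 passed (2.91, adjusted p = 0.0218, and 2.56, adjusted p = 0.0132, in edgeR), and Fzd1 (1.47, adjusted p = 0.0623) and Ror2 (0.89, adjusted p = 0.298) did not. Within the Lrat and Reln cluster alone Ror1 was at 0.034 (edgeR adjusted p = 0.981), and the other 3 genes had too few counts to be tested. In endothelial-like cells Prox1, a lymphatic endothelial transcription factor gene, was the single list gene of 18 tested to pass (160, 55.1, 482 and 717, log2 fold change 2.49, edgeR adjusted p = 0.0251). A cluster led by the lymphatic genes Ccl21a, Mmrn1 and Lyve1 gave that class 3, 3, 3 and 13 of its cells, and its part in the result was not tested. The Prox1 call was lost without sham replicate 2 (log2 fold change 1.85, edgeR adjusted p = 0.220) and without BDL replicate 1 (2.68, adjusted p = 0.0831), where the number of genes called in that class went from 31 to 14 and to 1. It was also lost with at least 10 CPM in 2 libraries (2.51, adjusted p = 0.152) and after thinning to equal depth (2.41, adjusted p = 0.0625).

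Genes with the most similar pattern were sought over 17 sums of cells by library and class, by Pearson's r of log2(level + 5) among 12451 genes with at least 200 UMIs. The points share libraries and depth, and the values are descriptions. Rspo3 was most like Tmem204, Batf2 and Hmcn1 (r = 0.98 each). Wnt7b was most like Bspry (0.94), Tmem171 (0.94) and Rasal1 (0.92), and Wnt7a most like Syne4, Adgb and another Wnt ligand gene, Wnt10a (0.91 each). Wnt4 was nearest to Rab11fip2 (0.88), Itih5 and Cdon (0.87 each), and Wnt5a to Shank1, Hmcn2 and Mark1 (0.96 each). The nearest genes were Tmem41b, Selenoi (0.96 each) and Sqle (0.94) for Lgr4, and Adh6a (0.92), Pard3bos1 (0.88) and Ndufb4 (0.85) for Lgr5. Znrf3 was nearest to Asah1 (0.91), Notch2 (0.87) and Crtc1 (0.86), and Rnf43 to Esrp2 (0.94), Foxp2 (0.93) and Faah (0.92). Axin2 was nearest to Nid2, Cdr2 (0.97 each) and Ecm2 (0.96).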

How the data were processed

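Each deposited matrix holds whole-number UMI counts per gene and cell from a Parse Evercode split-pool library primed with random hexamers and oligo(dT), per the labels' protocols. The authors' reference was mm39refseq per the file headers (GRCm39 per the submitters' processing notes). The aligner, counter and any doublet removal are not given in the sources used here.

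Cells with under 500 UMIs or over 20% mitochondrial UMIs were removed, and 12 called doublets (0.0984%, a rate at which the caller has not worked). Cells were clustered with scanpy 1.11.5 (2000 variable genes without the 10 genes, 30 components, 20 neighbours, Leiden resolution 1). A class other than BEC-like was given where at least 3 markers and 50% of its list were detected in 5% of a cluster's cells and over 2-fold enriched. A cluster left over was named BEC-like where at least 3 BEC markers met these cut-offs against the cells of the clusters named first. These rules were set after seeing the clusters. A shallow cluster, with a median depth under 0.5 of its libraries' and no own marker among its leading 10 genes, stayed unnamed. Counts were summed per library and class and tested with edgeR 4.0.16 in R 4.3.3 (TMM, default filter on low counts, quasi-likelihood, all 4 libraries, Benjamini-Hochberg over all genes tested, threshold 0.05). The interaction between 2 classes had the library as a block. DESeq2 1.42.0 and other alternatives are in the closing section. Scripts were tested on simulated data. Intervals are 95% Poisson or Clopper-Pearson and cover counting error only. Levels are without TMM scaling, but the log2 ratios between the 2 libraries whose label and table match are with it. Genes are not compared with one another, since UMIs from random primers scale with length. Strand use in counting is not stated, so overlapping genes could share reads.

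The 10 genes, the pathway lists and the markers were chosen with earlier results of these data known. Named list genes were up to 5 a list in BEC-like cells, and up to 4 over all lists in each other class, with the smallest adjusted p under 0.05. Dkk3 and Frzb were named after their values were seen, as was Cd44 in mesenchymal-like cells.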

Additional observations from a re-analysis of the deposited data

Results flagged for a closer look

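For 6 of the named pathway genes the change after BDL differed between BEC-like and mesenchymal-like cells by the edgeR interaction test. Values are BEC-like minus mesenchymal-like log2 fold changes, and none of the 10 R-spondin and Wnt genes was among the 6. Of all 15320 genes tested, 5.12% passed. The named list genes were chosen by their change within a class on these same counts. That choice favours such a difference, so the number that passed is no support for one. For Ror1 the difference was -2.81 (adjusted p = 1.28e-05), with a fall of 1.13 in BEC-like cells and a rise of 1.68 in mesenchymal-like cells. For Nkd2 it was -5.18 (adjusted p = 0.000831), on 10, 5, 5 and 13 UMIs in BEC-like cells. For Fzd1 it was -2.03 (adjusted p = 0.00441) and for Ror2 -2.08 (adjusted p = 0.0259), neither gene having passed in BEC-like cells. The Fzd1 call was lost without sham replicate 2 (-1.43, adjusted p = 0.109). The Ror2 call was lost without sham replicate 2 (-1.31, adjusted p = 0.324), without BDL replicate 1 (-1.66, adjusted p = 0.150), with DESeq2 (adjusted p = 0.0538) and with at least 10 CPM in 2 libraries (adjusted p = 0.0632). For Prickle1 it was -1.90 (adjusted p = 0.00420), on a fall in BEC-like cells and a log2 fold change of 0.49 in mesenchymal-like cells that did not pass (edgeR adjusted p = 0.387). For Cd44, which rose in both classes (log2 fold changes 2.63 and 1.45), it was 1.16 (adjusted p = 0.0320). That call was lost without sham replicate 1 (0.66, adjusted p = 0.520), without BDL replicate 1 (1.07, adjusted p = 0.161), with DESeq2 (adjusted p = 0.176) and with at least 10 CPM in 2 libraries (adjusted p = 0.0693). The calls on Ror1, Nkd2 and Prickle1 held under all 13 alternatives. The explanation of these differences was not tested.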

How the results depend on the processing

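No paired analysis was possible because replicates carry no number in the labels. A sublibrary below is 1 of the 8 parts into which the cell barcodes divide the cells of the same 4 libraries. Genes called in BEC-like cells (4317) numbered 1310 to 6168 with a library left out and 618 to 2283 in 1 sublibrary alone, where 5255 to 10952 genes were tested, and under the other settings stayed within 1.5 times. Genes called in mesenchymal-like cells (539) numbered 0 to 920 with a library left out, 344 with DESeq2 and 1067 with no filter on low counts. Genes called in endothelial-like cells (31) numbered 1 to 48 with a library left out, 11 with DESeq2, 52 with no filter, 0 with at least 10 CPM in 2 libraries (edgeR, 910 at an unadjusted p under 0.05), 7 after thinning to equal depth and 61 without the top doublet scores. Interaction calls (785) numbered 500 to 757 with a library left out, 409 with DESeq2 and 1272 without the top doublet scores. The causes were not tested.

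The fold changes that changed sign were all of results that had not passed. In BEC-like cells Wnt5a was at -0.15 in sublibrary 8 alone. In mesenchymal-like cells Lgr4 was at -0.46 to 0.26 with a library left out, being above 0 without sham replicate 2, and at 0.42 between the 2 libraries whose label and table match, and Znrf3 at -0.56 in the Lrat and Reln cluster alone. In endothelial-like cells Rspo3 was at 0.043 without TMM scaling and between -0.64 and 0.18 with a library left out, above 0 without sham replicate 1. With a library left out, the interaction values that changed sign ran from -0.95 to 0.13 for Lgr4 (above 0 without sham replicate 1), -0.16 to 0.51 for Lgr5 (below 0 without BDL replicate 2, and at -0.42 after thinning), -1.34 to 0.27 for Rspo3 (above 0 without sham replicate 2, and at 0.070 without BDL replicate 1), -1.08 to 1.67 for Wnt4 (below 0 without sham replicate 2, and at -0.19 without BDL replicate 1) and -0.73 to 0.10 for Wnt5a (above 0 without BDL replicate 2). The difference in the share of BEC-like cells with a UMI changed sign without thinning for Lgr4 (15.6 percentage points), Lgr5 (0.721), Znrf3 (11.8) and Axin2 (0.549). For Lgr5 it also did so when thinned to 2000 UMIs (0.0215), which left out 568 and 723 BEC-like cells in sham and 8 and 34 in BDL. For Axin2 it did so with a library left out (-0.197 to 0.0494, above 0 without sham replicate 2 and, at 0.00863, without BDL replicate 1). Among the 10 genes Wnt4 and Wnt7a in BEC-like cells kept their call under all 13 alternatives to the whole-class test, and Wnt4 and Wnt7b passed in each of the 8 sublibraries alone. The sublibrary runs reuse the same 4 libraries on parts of their cells, so they are no further replicates and do not bear on differences between mice. Depth limits Rspo3, Lgr5 and Axin2 in BEC-like cells and all 10 genes in endothelial-like cells.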
